A study of Nasonia vitripennis with 76 samples.

Results

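*Lop1* is the gene of a long-wavelength opsin in the parasitoid wasp *Nasonia vitripennis*, and it was followed as a single row of the count table and of the TPM table, 1 of 14621 genes with counts, across all 76 RNA libraries of the series. An opsin is the protein part of a visual pigment: it holds a retinal chromophore in the membrane of a photoreceptor cell and, once light has changed the shape of that chromophore, starts a G protein cascade which in *Drosophila* runs through phospholipase C to the TRP channels. Long-wavelength opsins absorb green light best, and in the honey bee they are the pigment of most photoreceptor cells of the compound eye. Insect opsin transcripts are accordingly abundant in heads with eyes, and *Lop1* was chosen here for its high level in heads and near absence from abdomens, so that contrast is described below without a test.

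All wasps came from the TRA line, a polyploid line founded by knockdown of *transformer*, and were 1 day past emergence. Polyadenylated RNA was taken from heads and abdomens of 2N and 3N females of generations F2 and F14 and of 1N and 2N males of generations F3 and F15. This gives 16 groups of 5 libraries each, apart from 2 abdomen groups of 3 (F2 2N female and F3 2N male). In normal *Nasonia* males are haploid and females diploid, so the 3N females and the 2N males carry an extra chromosome set. Every group shares the founding knockdown, and no group here is from another line. The labels do not state whether the libraries of a group were separate wasps, pools or rearings, so p-values measure only the spread between these libraries, which may be technical. Early and late generations may also have differed in rearing or library preparation, and this cannot be told apart from generation. In RNA of whole heads, fewer photoreceptor cells and less *Lop1* RNA per cell cannot be told apart either.

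Depth was 14.2 to 32.5 M counts in heads and 15.3 to 60.1 M in abdomens. The head library A34, labelled as an F2 3N female, had no *Lop1* count among 28.93 M, which allows at most 0.104 CPM (the count scaled to the library total). Its profile, with *Lop1* left out, correlated across genes at 0.993 to 0.996 with the 5 abdomens of F2 3N females and at no more than 0.751 with any other head. The ovarian and germ-line genes *oskar*, *nanos* and *cycB* stood at 780.7, 86.29 and 810.6 CPM in A34, against at most 26.01, 2.622 and 23.65 CPM in the other heads, so the library labelled A34 was set apart and 39 heads were used. 4 further heads, A35 of the F2 3N females, A1A and A2A of the F3 1N males and A15A of the F3 2N males, held the highest *Lop1* levels of all. Results that rest on them are given with and without them.

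*Lop1* was among the most abundant transcripts of the head and close to absent from the abdomen. On the TPM scale, which corrects for gene length, it lay between 964 (A51) and 22908 (A35) in the 39 heads, with a median of 5413. Its rank among all genes by TPM in a head had a median of 8 and ran from 1 in A35 to 147 in A51. Its share of all counts in a head was 0.455% at the median, and ran from 0.0791% to 1.98%. In the 36 abdomens its TPM ran from 0 to 4.8, with a median of 0.065. The lowest head therefore stood 201 times above the highest abdomen, and no head other than A34 came near the abdomens.

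**Figure D1:**
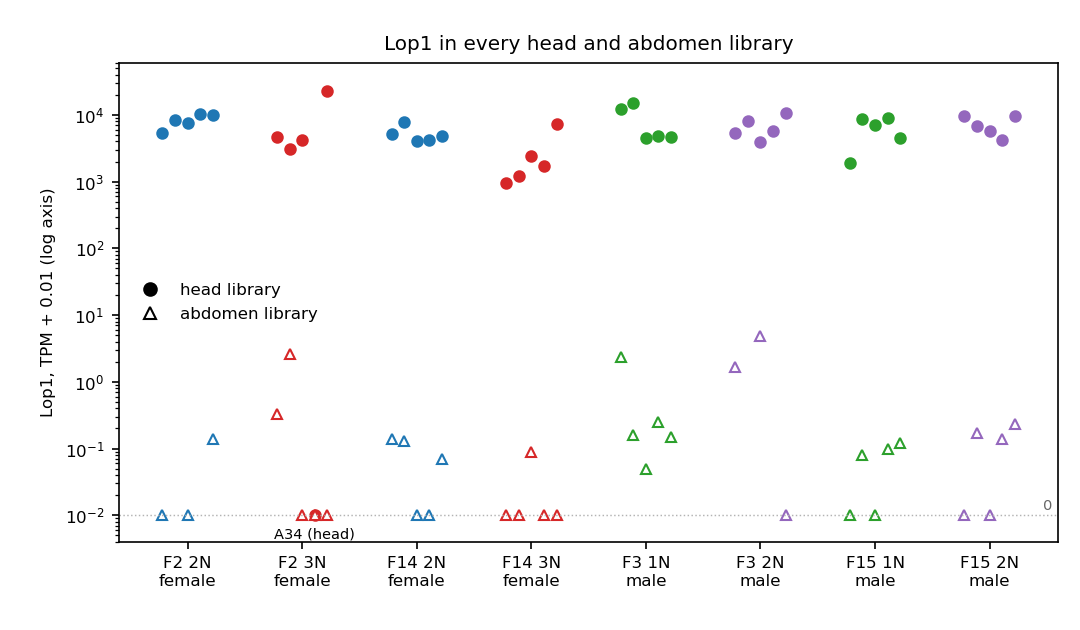
*Lop1* in each library, as deposited TPM plus 0.01 on a log axis, for heads (filled circles) and abdomens (open triangles) of the 8 combinations of sex, generation and ploidy, with libraries at 0 on the dotted line. The 39 heads lie between 964 and 22908 TPM, the 36 abdomens between 0 and 4.8, and the head library A34 lies at 0 with the abdomens.

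The traces in abdomens were few and unevenly spread. 16 of the 36 abdomens had no *Lop1* count, 12 had 1 to 3, 4 had 4 to 39 and 4 had 40 or more. Those 4, A18 and A16 of the F3 2N males, A37 of the F2 3N females and A10 of the F3 1N males, had 113, 42, 75 and 68 counts and held 298 of the 357 counts of all abdomens. Summed over a group, the abdomens of F3 2N males held 2.33 CPM (exact 95% Poisson interval 1.97 to 2.72) and those of F14 3N females 0.0156 CPM (0.00189 to 0.0563). These intervals cover counting error only. The 20 late abdomens held at most 9 counts each, and all 4 abdomens with 40 or more counts were early ones. Of 12 other genes compared, 9 were in none of these 4 libraries above the highest of the other 32 abdomens. The other 3 were above it in at least 1. Not all 12 were confined to heads: LOC100118808 had a median of 38.43 TPM in heads and of 32.7 TPM in the other 32 abdomens. LOC100118309 and LOC100118238 had medians of 20.3 and 20.5 TPM in those abdomens. The median head stood 1130 times above A18, the highest abdomen, in *Lop1*. At that ratio, head material would add less of each of the 12 genes than the highest of the other 32 abdomens already held. The 12 genes therefore could not show traces of head material. *Pdf*, the peptide of clock neurons, had 0.31 to 2.27 TPM in the 4 libraries and up to 2.75 in the other 32 abdomens. LOC100120898, a gene at a median of 186.5 TPM in heads, had 0.02 to 0.1 TPM in them and up to 0.19 in the others. LOC100679231 had 2.48 TPM in A18 and 1.54 TPM in A10, above the 1.47 TPM of the highest other abdomen. A18, the abdomen with the most *Lop1*, was also above the others for LOC100121837, at 14.94 against 14.67 TPM, and for *HisCl1*, at 1.0 against 0.72 TPM. Whether head material reached these abdomens was not tested.

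Within the head, *Lop1* varied more between libraries of a group than most genes did. Levels in heads are given from here on as CPM after TMM scaling of library sizes, with the mean ± SD of a group. The pooled SD within groups was 0.855 on the log2 scale, above that of 80.9% of the 11530 genes tested in heads, whose median was 0.356. Among the 106 genes with a mean of at least 1000 CPM, the median was 0.285 and *Lop1* was above 93.4% of them. Groups accounted for 36.6% of the variance of log2 *Lop1* and libraries within groups for 63.4%. Without A35, A1A, A2A and A15A the pooled SD was 0.656 and groups accounted for 50.1%. The lowest head count of *Lop1* was 12920, so counting error is small beside this spread.

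The F2 2N female heads held 4347, 5810, 6472, 7500 and 7949 CPM (mean 6416 ± 1430, SD, n = 5). The F2 3N female heads held 2440, 3195 and 3605 CPM and, in A35, 21254 CPM (mean 7623 ± 9100, SD, n = 4). Apart from A35, each F2 3N head lay below each F2 2N head, and their mean was 3080 ± 591 (SD, n = 3). The F14 2N female heads held 3978, 4025, 4610, 4751 and 6874 CPM (mean 4848 ± 1184, SD, n = 5). The F14 3N female heads held 750.6, 1004, 1660 and 1926 CPM and, in A55, 6322 CPM (mean 2332 ± 2280, SD, n = 5). Apart from A55, each F14 3N head lay below each F14 2N head and below each F2 3N head. 4 of the 5 lowest *Lop1* levels among the 39 heads were F14 3N females, and the other was A71, a F15 1N male.

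The F3 1N male heads held 3787, 4262 and 4339 CPM, with 12287 CPM in A1A and 16890 CPM in A2A (mean 8313 ± 5959, SD, n = 5). Without these 2 their mean was 4129 ± 299 (SD, n = 3). The F3 2N male heads held 3196, 4147, 4370 and 6400 CPM, with 9961 CPM in A15A (mean 5615 ± 2695, SD, n = 5). Without A15A their mean was 4528 ± 1348 (SD, n = 4). The F15 1N male heads held 1703 (A71), 4445, 6584, 7464 and 8137 CPM (mean 5667 ± 2616, SD, n = 5). The F15 2N male heads held 3245, 4462, 5643, 7201 and 7429 CPM (mean 5596 ± 1786, SD, n = 5). Ordered by mean, the groups run from F3 1N males at the top through F2 3N females, F2 2N females, F15 1N males, F3 2N males, F15 2N males and F14 2N females to F14 3N females. Without A35, A1A, A2A and A15A the order is F2 2N females, F15 1N males, F15 2N males, F14 2N females, F3 2N males, F3 1N males, F2 3N females and F14 3N females, so the first 2 places rest on these libraries. With all 39 heads, neighbours in the order overlap in their libraries, and so did the groups of each of the 12 direct comparisons below.

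**Figure D2:**
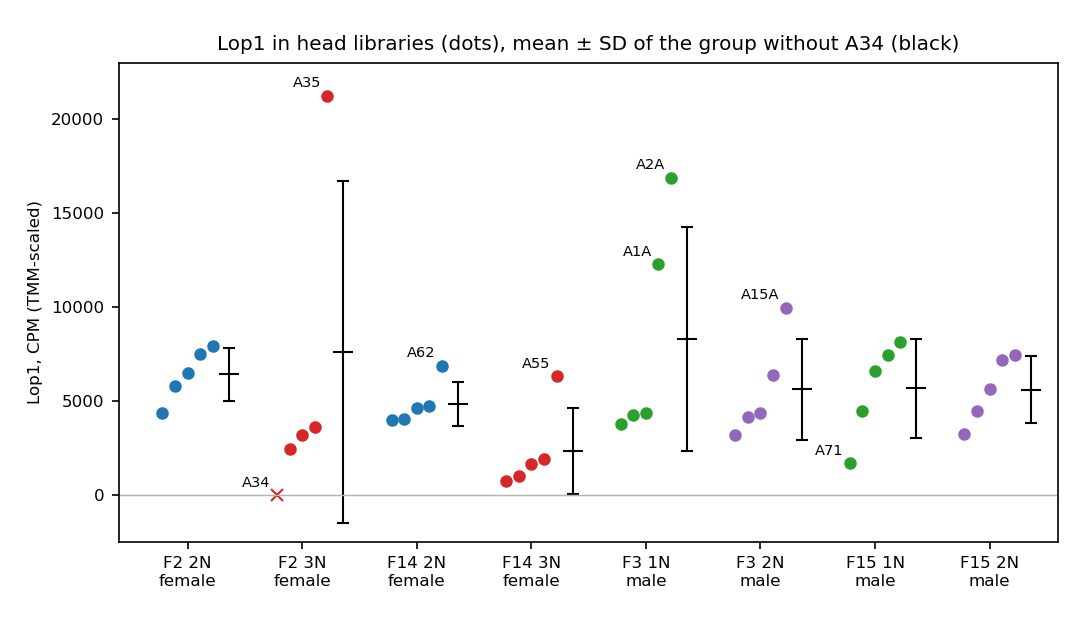
*Lop1* in each head library as TMM-scaled CPM, sorted by level within its group, with the mean and SD of the group in black (n = 5, or 4 for F2 3N females without A34, which is the cross at 0). A35, A2A, A1A and A15A are the 4 highest heads at 21254, 16890, 12287 and 9961 CPM, and 4 of the 5 F14 3N female heads lie between 750.6 and 1926 CPM.

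The first question of the design is what an extra chromosome set does, and *Lop1* did not pass the test for ploidy in any of the 4 comparisons of heads. Differences are log2 values with their standard error, the higher ploidy minus the lower, and a gene was called at an adjusted p below 0.05 over all genes of the fit (edgeR). In F14 females the 3N heads were lower than the 2N heads by a log2 difference of −1.06 ± 0.579 (95% interval −2.27 to 0.163, adjusted p = 0.311), where 3.57% of 10987 genes were called. This value rested on A55: without it the difference was −1.86 and passed (adjusted p = 0.0314), in a fit that called 11.6% of genes. On mean log2 levels, which weigh A55 less, an exact two-sided permutation test gave −1.46 with p = 0.0397 (0.476 adjusted over 12 comparisons, smallest possible p 0.00794). In F2 females the difference was 0.26 ± 0.606 (−1.02 to 1.53, adjusted p = 0.851), with 5.82% of genes called. Its sign rested on A35, since it was −1.06 without A34 and A35 (adjusted p = 0.306, 6.37% of genes called). The ploidy difference at F14 minus that at F2 was −1.31 ± 0.835 (adjusted p = 0.344), and 0.00 without A34 and A35, where 6.47% and 10.7% of genes were called.

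In males neither ploidy difference of *Lop1* passed. The 2N minus 1N difference was −0.60 ± 0.454 at F3 (−1.55 to 0.354, adjusted p = 0.418), where 12% of 10943 genes were called. It was 0.11 without A1A, A2A and A15A (adjusted p = 0.849), although 32.7% of genes were called in that fit. At F15 the difference was 0.01 ± 0.452 (−0.937 to 0.956, adjusted p = 0.996), with 3.25% of genes called. On the linear scale that interval reaches from 0.522 to 1.94 times, so changes of *Lop1* inside these bounds could not be seen with 5 libraries a group. The male ploidy difference at F15 minus that at F3 was 0.61 ± 0.640 (adjusted p = 0.587), with 8.64% of genes called, and −0.12 without A1A, A2A and A15A (adjusted p = 0.885).

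Generation gave the only call of *Lop1* among the 15 comparisons. In 3N female heads *Lop1* was lower at F14 than at F2 by −1.72 ± 0.612 (−3.002 to −0.429, adjusted p = 0.0456), a level 0.305 times that of F2. In that comparison 26.8% of genes were called, and 16.4% of all tested genes were called lower. A35 carried this call: without A34 and A35 the difference was −0.40 (adjusted p = 0.542) while 45.6% of genes were called. It was −2.52 without A55 (adjusted p = 0.00363, 25.7% of genes called) and −1.39 with A34 kept in its labelled group (adjusted p = 0.385, 23.3% of genes called). The call also ended when any of the other 4 F14 3N heads was left out (adjusted p = 0.0859 to 0.0958). In 2N female heads, where 57.2% of genes were called, the generation difference of *Lop1* was −0.40 ± 0.574 (−1.61 to 0.803, adjusted p = 0.565).

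In male heads the generation differences, F15 minus F3, did not pass either. The 1N value was −0.60 ± 0.454 (−1.55 to 0.35, adjusted p = 0.306), where 42.1% of genes were called, and it turned to 0.42 without A1A, A2A and A15A (adjusted p = 0.402). The 2N value was 0.01 ± 0.452 (−0.941 to 0.952, adjusted p = 0.994), where 30.2% of genes were called, and 0.30 without A1A, A2A and A15A (adjusted p = 0.512).

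*Lop1* levels in female and male heads did not pass the test for sex in any comparison. Sex was compared at equal ploidy, 2N males minus 2N females, and between the normal ploidies, 1N males minus 2N females, in 1 fit of all head groups that tested 11530 genes. At 2N the difference was −0.19 ± 0.535 in early heads, F3 against F2 (−1.28 to 0.896, adjusted p = 0.79, 44.6% of genes called), and −0.50 without A1A, A2A and A15A (adjusted p = 0.459). In late heads, F15 against F14, it was 0.21 ± 0.535 (−0.881 to 1.295, adjusted p = 0.762, 52.7% of genes called). The late minus the early sex difference at 2N was 0.40 ± 0.757 (adjusted p = 0.666), where 57.9% of genes were called, and 0.71 without A1A, A2A and A15A (adjusted p = 0.407). For 1N males against 2N females the values were 0.37 ± 0.536 early (adjusted p = 0.612) and 0.23 ± 0.535 late (adjusted p = 0.735), where 34.8% and 56.6% of genes were called. The early value turned to −0.64 without A1A, A2A and A15A (adjusted p = 0.481). The male and female generations are 1 apart in each pair.

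**Figure D3:**
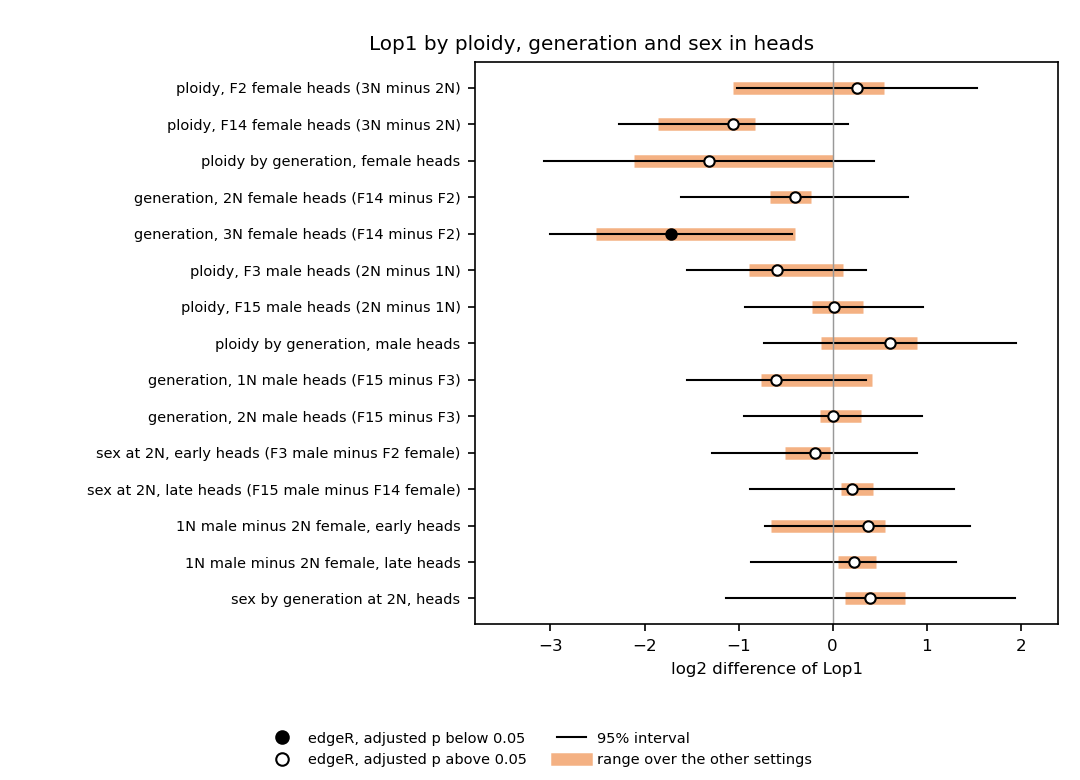
Log2 differences of *Lop1* for the 15 comparisons of heads, with edgeR's value and its 95% interval (black) and the range over all other settings (orange). Only the generation difference of 3N females, at −1.72, is filled as called, and its settings reach from −2.52 to −0.404.

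The 4 highest heads differed from the rest of their groups in more than *Lop1*. A35 held 6.65 times the median *Lop1* of the other F2 3N heads, A2A and A1A 3.96 and 2.88 times that of the other F3 1N heads, and A15A 2.34 times that of the other F3 2N heads. Genes of the antenna ran the other way in 3 of them. The 214 odorant receptors, the ligand-gated channels of olfactory neurons, summed to 31.01 CPM in A35 against 620.9 to 784.3 CPM in the other F2 3N heads. They summed to 37.28 CPM in A2A and 40.86 CPM in A1A against 279.9 to 454.2 CPM in the other F3 1N heads. In A15A the sum was 90.99 CPM, inside the 44.81 to 98.12 CPM of the other F3 2N heads. Low sums were not confined to heads with high *Lop1*. Among F15 2N males the sum was 43.64 CPM in A84 and 49.26 CPM in A81, against 221.5 to 322.9 CPM in the others. A84 held the lowest *Lop1* of that group, 3245 CPM, and A81 held 7201 CPM. The F14 2N and F14 3N female heads summed to at most 124.3 and 47.49 CPM.

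*Or1*, the odorant coreceptor, is counted in the receptor sums. It was at 2.702 CPM in A35 against 340.1 to 382.6 CPM in the other F2 3N heads, where it made up a large part of the sum. The low *Or1* and the low sum of A35 are therefore not separate observations. *Para*, a voltage-gated sodium channel of neurons, was at 45.94 CPM in A35 against 338.7 to 360.8, and at 40.8 and 80.87 CPM in A2A and A1A against 273.2 to 363.5. The neuronal genes did not all go the same way. *Pdf* was at 453.4 CPM in A35 against 93.9 to 101.4, and at 254.5 and 205.3 CPM in A2A and A1A against 86.65 to 93.7. *Syt1*, the calcium sensor of synaptic vesicle release, was at 1260 CPM in A35 against 903.6 to 1073. The summed *CYP* genes, 42 cytochrome P450 monooxygenases, were at 1232 CPM in A35 against 3782 to 4610. They were at 2496 and 2344 CPM in A2A and A1A against 3900 to 9099. In A15A they went the other way, at 9540 CPM against 3049 to 5823. *Para*, *Pdf* and *Syt1* in A15A, at 65.67, 236.6 and 689.3 CPM, lay inside the ranges of the other F3 2N heads. The cuticle gene *CPR48* was at 466.7 CPM in A35 against 16.41 to 51.06, and at 30280 and 17810 CPM in A2A and A1A against 6676 to 9847. In A15A *CPR48* was at 7147 CPM against 896.8 to 1489. These 4 heads were also among the shallowest, with 14.21 to 16.21 M counts. The part of tissue makeup, of scaling or of depth in their *Lop1* level was not tested.

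A55, the high head of the F14 3N females, held 4.75 times the median *Lop1* of the other 4 heads of its group. Its odorant receptors summed to 31.98 CPM against 35.67 to 47.49 in the others, *Pdf* was at 198.8 CPM against 159.4 to 206.8, and *Para* at 189.7 CPM against 131.4 to 162.6. *Syt1* was at 1706 CPM against 1125 to 1469, and the summed *CYP* genes were at 892.1 CPM against 1158 to 1294. The summed odorant receptors and *CYP* genes thus lay below the others of the group and *Syt1* above them, in the same direction as in A35. The receptor sum was at 0.762 times the median of the others in A55, against 0.0463 times in A35. *Or1* went the other way in A55, at 6.94 CPM against 0.8714 to 3.872 in the others. *Para* lay above the others in A55 and below them in A35. The cuticle genes *apd-3* and *CPR48* were above the others, at 539.5 CPM against 27.13 to 198.1 and at 1069 CPM against 89.65 to 463.3.

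**Figure D4:**
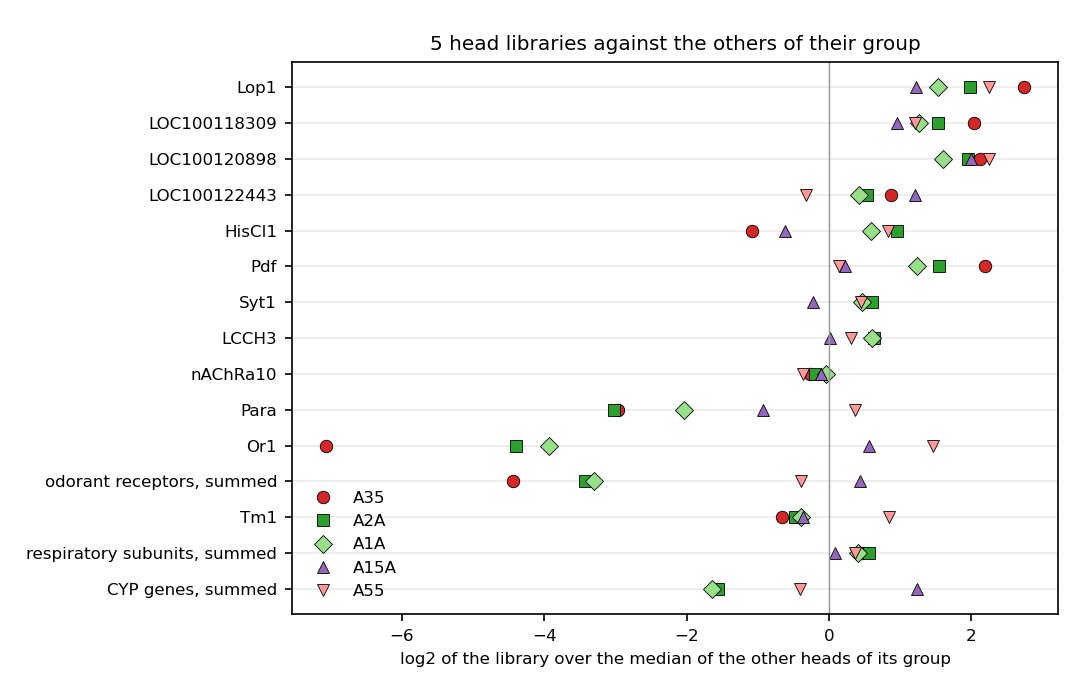
Log2 ratio of 5 head libraries to the median of the other heads of their group (n = 3 for A35, A2A and A1A, 4 for A15A and A55), for *Lop1*, the genes like it, nerve, antenna, muscle and metabolic genes. *Lop1* is 2.34 to 6.65 times the median in all 5, while the summed odorant receptors are at 0.0463, 0.0925 and 0.101 times in A35, A2A and A1A and at 1.36 and 0.762 times in A15A and A55.

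Other genes followed *Lop1* from head library to head library. Likeness was the Pearson correlation of log2 CPM over the 39 heads, among 8419 genes with a mean of at least 5 CPM, and it is a description, since the points share library, depth and tissue makeup. The most like were LOC100118309 (r = 0.934), LOC100118808 (0.932), LOC100118238 (0.904), LOC100121837 (0.894) and LOC100118801 (0.893). Leaving out A35 and A51, the libraries farthest from the median of *Lop1*, gave 0.860 to 0.910. The median gene had r = −0.0207, and 22 genes reached 0.8. The tables used here give these genes no name, so their products stay unstated.

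LOC100118309 shows the pattern in numbers. It held 872.4 CPM in A35 against 198.6 CPM in the lowest head of that group, and 584.6 CPM in A2A against 190.4 CPM in the lowest F3 1N head. In the F14 3N females it ran from 73.61 to 212.1 CPM, with A55 the highest at 212.05 CPM. In F2 2N females, where *Lop1* ran from 4347 to 7949 CPM, it stayed between 252.8 and 307.4 CPM.

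Taken as deviations from group means, which leaves out differences between groups, the correlations were higher. LOC100120898 (r = 0.963), LOC100118309 (0.953), LOC100679837 (0.942), LOC100118801 (0.940) and LOC100679231 (0.934) led, and 101 genes reached 0.8. LOC100120898 kept 0.958 without A35 and A55. Between groups it ran apart from *Lop1*: it was at 144.0 ± 47.74 CPM in F14 2N female heads and at 679.9 ± 229.2 CPM in F2 2N ones (SD, n = 5 each), where *Lop1* means were 4848 and 6416 CPM. At the other end, LOC100120071 (r = −0.716), LOC100124095 and LOC100122279 (both −0.715) ran most against *Lop1* over libraries. LOC100114146 (−0.866), LOC100117172 (−0.853) and LOC100122642 (−0.842) did so over deviations.

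**Figure D5:**
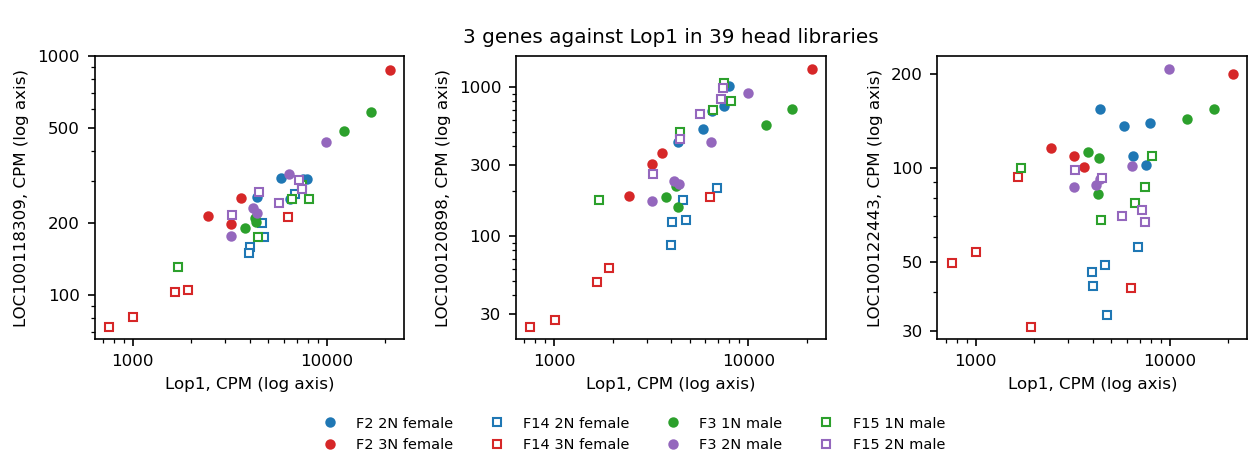
CPM of 3 genes against *Lop1* in the 39 heads on log axes, by group (filled circles early, open squares late generations). LOC100118309 follows *Lop1* over the 39 heads (r = 0.934), though it stays between 252.8 and 307.4 CPM in F2 2N females. LOC100120898 lies lower at F14 in females for a given *Lop1* level, and LOC100122443, near *Lop1* in the genome, follows *Lop1* loosely (r = 0.457).

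*Lop1* lies in a crowded place of the genome. In the gene table of assembly Nvit_psr_1.1, used only for gene order, 8 genes overlap it, among them its nearest neighbours LOC100679148, LOC116417070 and LOC116417372. The labels do not say that strand was kept, so reads of overlapping exons could be shared among them. In no head did any of the 8 reach more than 35.1% of the *Lop1* count (LOC100119218, with a median of 5.55%). In abdomens, where *Lop1* was at no more than 4.8 TPM, LOC100679148 held 54.34 to 139.7 TPM and LOC100119218 up to 50.47 TPM.

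LOC100122443, the nearest neighbour with no overlap on its side, was also a gene of the head, at 44.48 to 262.4 TPM (median 130.6) against 0.16 to 4.81 TPM in abdomens. It was chosen by position, but it was measured in the same libraries, correlated with *Lop1* at r = 0.457 over the 39 heads, and was at 1.83, 1.44, 1.34 and 2.31 times the median of the group in A35, A2A, A1A and A15A. It fell between generations in 2N females, from 128.3 ± 22.21 to 45.26 ± 8.188 CPM (SD, n = 5 each), groups that did not overlap (57.2% of genes called). The log2 difference was −1.50 (adjusted p = 8.2e-05). In 3N females it fell by 1.29 on the log2 scale (adjusted p = 0.00147, 26.8% of genes called). In late heads it was higher in males, by 0.83 at 2N (adjusted p = 0.00546, 52.7% of genes called). For 1N males against 2N females the late difference was 0.97 (adjusted p = 0.0013, 56.6% of genes called). The sex difference at 2N itself differed between late and early heads by 0.98 (adjusted p = 0.0158, 57.9% of genes called). Its 4 ploidy comparisons did not pass. All 5 calls ended with A34 kept in its labelled group (adjusted p = 0.0988 to 0.298), with the differences at 0.841 to 1.02 for sex and −1.50 and −0.965 for generation.

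Of a list of 100 symbols for opsins, the phototransduction cascade, eye development, eye pigment and the clock, 3 are in the count table under those symbols, *Lop1*, *HisCl1* and *white*, and other members may stand under LOC numbers. *HisCl1*, which in *Drosophila* is a chloride channel gated by histamine, the transmitter of photoreceptor cells, held group means that ran from 25.5 ± 9.917 CPM in F15 1N males to 37.23 ± 15.71 CPM in F2 3N females (SD, n = 5 and 4). In A35, where *Lop1* was highest, it was at 0.471 times the median of its group, and in A55 at 1.77 times. It passed in 0 of 15 comparisons by edgeR, with 0 at an unadjusted p below 0.05, 0 by DESeq2 and 0 by limma.

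*white*, which in *Drosophila* carries pigment precursors into eye cells, was close to absent from these heads, at 0 to 4.164 CPM. Its group means were 2.906 ± 1.263 CPM in F15 1N males, 1.871 ± 0.475 CPM in F15 2N males and 1.273 ± 0.8718 CPM in F3 1N males (SD, n = 5 each). In the F3 2N males and the 4 female groups they lay between 0.1656 and 0.4176 CPM, where counting error is not small. Some F14 female heads of either ploidy were at 0. *white* was removed by the filter on low counts in the female fit and passed it in the other fits through the groups in which it is higher, so no test of it is given.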

How the data were processed

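The deposited expected counts per gene are the authors', and the submitters' processing notes name STAR 2.7.11a and RSEM 1.3.1. RSEM splits reads of similar genes by estimation. The deposited TPM values were made by the authors from the same libraries. The build is not given in the sources used here. Symbols and gene order came from a RefSeq gene table, in which all 14621 genes matched.

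Rounded counts passed filterByExpr, were scaled by TMM and entered edgeR's quasi-likelihood test (version 4.0.16, R 4.3.3, robust), with 1 coefficient per group and Benjamini-Hochberg adjustment over all genes. Ploidy and generation were fitted over the 4 head groups of a sex, sex over all 8, each without A34. Alternatives were RLE and upper quartile scaling, DESeq2 1.42.0, limma 3.58.1 on log2(TPM + 1), no filter and a stricter one (5 CPM in 5 libraries), other sets of libraries, each library left out, and exact two-sided permutation tests (SciPy 1.17.1). The edgeR step was tested on simulated data with the same spread for all genes and no outlying libraries. That test does not cover a gene as variable as *Lop1*. Depth ran from 14.2 to 60.1 M counts, so counting error is small for *Lop1* in heads but not in abdomens, nor for *white*.

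Named genes were the 5 most and 3 least like *Lop1* by either measure (log2 CPM with a prior count of 2), its 2 neighbours on either side, photoreceptor genes by symbol and marker genes of head and abdomen tissues. Genes with proteins like that of *Lop1* were part of the rule and are not analysed here. *Lop1*, the comparisons and the lists were chosen with earlier results of these data known. The alternatives for *HisCl1* and LOC100122443 were added after seeing the data.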

Additional observations from a re-analysis of the deposited data

Results flagged for a closer look

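In 6 of 14 groups with at least 4 libraries, 1 library's *Lop1* level lay far from the others of its group by Dixon's criterion. Chance meets it in about 1 group in 20 only for normally distributed values, which counts near 0 and skewed levels are not. The 6 of 14 can therefore not be set against that rate. Among heads the libraries were A35 of the F2 3N females at 21254 CPM, A55 of the F14 3N females at 6322.1 CPM and A62 of the F14 2N females at 6873.9 CPM. Each was the highest of its group. Among abdomens they were A37 of the F2 3N females at 2.64 TPM, A10 of the F3 1N males at 2.38 TPM and A58 of the F14 3N females at 0.08 TPM. The value of A58 comes from 2 counts in a group whose other libraries had none.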

How the results depend on the processing

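The 15 *Lop1* differences were recomputed 337 times: 286 kept their sign and their side of the threshold, 12 lost a call, 2 gained one and 37 changed sign, and none of those 37 passed. For comparisons with F2 3N heads, the fit without A34 and A35 is the same as that with only A35 left out. It is counted under both names. No paired analysis was possible because the labels give each library its own name and no replicate number, and the numbers used here follow accession order only. The generation difference of 3N females was −1.646 by upper quartile scaling, −1.686 by DESeq2 (adjusted p = 0.0612), −1.717 with no filter, −1.386 with A34 kept, −0.404 without A34 and A35, −1.718 in a fit of its groups only and −1.52 by permutation, none passing, and −2.520 to −0.404 with 1 library left out. Its call was kept by limma, RLE scaling, the stricter filter and the fit of all 8 head groups. The F14 female ploidy difference passed by permutation before adjustment (−1.461) and ran from −1.860 to −0.830 with 1 library left out. The F2 female one turned to −0.407 by limma, −0.066 with A34 kept, −1.057 without A34 and A35 and −0.345 by permutation (−1.057 to 0.549 with 1 left out), and the female interaction to 0.001 without A34 and A35 (−2.116 to 0.001). Without A1A, A2A and A15A, values turned to 0.113 (ploidy, F3 males), −0.008 (ploidy, F15 males), −0.121 (male interaction), 0.423 (generation, 1N males) and −0.636 (1N males against early 2N females, also −0.651 without A34 and A35 too, a setting added after seeing the data, −0.167 by limma, and −0.085 to 0.558 with 1 left out). The F15 male ploidy difference, near 0, turned to −0.023 by RLE and by DESeq2, −0.037 by upper quartile, −0.021 with no filter, −0.018 with all 8 groups and −0.035 with its groups only (−0.222 to 0.173 with 1 left out). The generation difference of 2N males, also near 0, turned to −0.109 by upper quartile, −0.008 with no filter, −0.018 with the stricter one, −0.005 with all 8 groups and −0.001 with its groups only (−0.139 to 0.298 with 1 left out). The cause of these changes was not tested. Of the 5 calls of LOC100122443, that of sex by generation also ended by upper quartile scaling (0.712, adjusted p = 0.0782). *HisCl1* passed in none of 337 recomputed values. Limits are the number of libraries and their spread, since depth in heads is ample; the levels are relative to each library's total.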
